A study of Mus musculus with 4 samples.

Results

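Of 6157 genomic regions listed as occupied by OTX2 only in primitive streak (PS) and definitive endoderm (DE) cells, 774 (12.6%) lay in gene deserts. The list is named as regions found in these 2 stages only, so it is not every region that PS and DE cells share. A region was counted there when its midpoint was outside every protein-coding gene and more than 100 kb from every protein-coding gene end, on the mouse build mm10 with RefSeq genes. The 4 region lists of the series held 39615 regions in all: PS and DE, DE only, PS only, and a stage written EPI together with PS. The label held by construction, because position alone chose the members. The members nearest to the limit lay 100.18 kb from Chd7, 100.26 kb from Cited2 and 100.64 kb from Gm4907, and the regions just outside the set lay 99.94 kb from Jag1, 99.85 kb from Sall1 and 99.75 kb from Hmga2.

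OTX2 was mapped by CUT&RUN, which cuts and sequences the DNA around a protein that an antibody has bound. Here the target was an HA tag on OTX2, in mouse lines of BL6/129 hybrid genotype named OTX2-dTAG-EGFP, which were first kept as epiblast stem cells (EpiSCs) with FGF2 at 12.5 ng/ml, NVP at 175 nM and Activin A at 20 ng/ml. PS cells had received CHIR, which activates WNT signalling, at 3 uM with Activin A at 40 ng/ml for 16 h, and DE cells then LDN, which blocks BMP receptors, at 100 nM with Activin A at 100 ng/ml for 24 h. The samples described here are 4 PS libraries: anti-HA from the lines 7H, 7H1 and 7H2, and control IgG from 7H2. All groups carried the tagged OTX2, and the libraries of DE and EpiSC cells were not analysed here. The lists give positions only, with no height and no value per library, so the depth is unknown, no spread between the 3 anti-HA libraries can be given, and regions stand in for measurements. Regions are not biological replicates and neighbouring regions are not independent, so the p-values below are too small.

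OTX2 is a homeodomain transcription factor of the bicoid type, which recognises a short core written TAATCC and is needed for the anterior streak, the anterior endoderm and the forebrain. Gene deserts are long stretches without protein-coding genes. Many border genes for developmental transcription factors and signalling proteins and hold enhancers that act over long distances, while others border large genes of neuronal adhesion molecules. An enhancer need not act on the nearest gene, so a gene named below is a neighbour and not a known target.

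Bases were at hand for 8 members, which lay at or near the start of an annotated long non-coding RNA (lncRNA) and so fell partly or wholly into a RefSeq promoter window (250 bases before to 50 after the start, GRCm38.p6). All 8 starts belonged to lncRNA genes. The 5 sequences that follow show the 4 members whose available bases held the shorter core TAATC, and 1 member that was available in full and held none. Each is written 5′ to 3′ on the strand of the lncRNA, and capitals mark TAATCC or TAATC on either strand, which reads GGATTA or GATTA on the other. TAATC is part of TAATCC, so each longer match is also a shorter one.
Gm41638 member, chr17:83959575-83959727, minus strand: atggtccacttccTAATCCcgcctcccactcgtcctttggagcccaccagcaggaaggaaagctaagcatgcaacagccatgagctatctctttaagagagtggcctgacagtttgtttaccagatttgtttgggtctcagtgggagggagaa
Gm10637 member, chr8:87199899-87200100, minus strand: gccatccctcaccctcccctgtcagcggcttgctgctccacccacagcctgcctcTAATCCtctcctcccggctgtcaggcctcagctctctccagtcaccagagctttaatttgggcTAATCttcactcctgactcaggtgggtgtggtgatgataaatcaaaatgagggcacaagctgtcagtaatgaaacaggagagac
Gm33176 member, chr1:35941763-35941967, plus strand: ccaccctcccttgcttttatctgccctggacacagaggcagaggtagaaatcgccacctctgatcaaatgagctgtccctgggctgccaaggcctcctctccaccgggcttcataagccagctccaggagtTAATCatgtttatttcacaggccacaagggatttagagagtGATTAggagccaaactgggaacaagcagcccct
Gm39160 member, chr8:34472963-34473249, minus strand: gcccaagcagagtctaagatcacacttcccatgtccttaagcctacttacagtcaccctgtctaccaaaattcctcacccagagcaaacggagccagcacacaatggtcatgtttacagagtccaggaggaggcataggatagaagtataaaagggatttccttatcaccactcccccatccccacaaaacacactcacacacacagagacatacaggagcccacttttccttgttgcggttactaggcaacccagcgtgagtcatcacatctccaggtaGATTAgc
Gm38838 member, chr6:81446224-81446284, minus strand: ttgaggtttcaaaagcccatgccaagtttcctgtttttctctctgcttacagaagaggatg

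The Gm41638 member, 111 kb from Haao, was covered in full and held 1 TAATCC. The Gm10637 member, 269 kb from Cbln1, a secreted organiser of synapses, held 1 TAATCC and a separate TAATC. The Gm33176 member (127 kb from Hs6st1) held 2 copies of TAATC and the Gm39160 member (302 kb from Saraf) held 1, near the 3′ end of the bases shown. Over the whole windows of 300 bases, TAATCC occurred in 3 of 8 and TAATC in 7 of 8. TAATCC occurred in 7.06% of all 32817 promoter windows and in 8.96% (95% Wilson interval 7.80 to 10.3) of the 2077 windows in deserts, and TAATC in 22.0% and 32.3%. Among the 34 desert windows with a DE only region, TAATCC occurred in 23.5% (12.4 to 40.0) and TAATC in 50%. With 8 members no test was made, and a match is a run of letters and not a shown binding site.

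Several other motifs occurred in as many members as TAATCC, in bases that are mostly shorter than the windows. TGTTTAC, a core of forkhead factors, occurred in the Gm39160 and Gm41638 members, against 4.62% of the windows in deserts. AGATAA, a core of GATA factors, occurred in 2 members and in 18% of those windows. CAGCAGG (ZIC factors), TGANTCA (AP-1) and ACAATG (SOX factors) also occurred in 2 members each, against 9.0%, 10.4% and 22.5% of those windows, and ACAAAG, another SOX core, in 1 against 25.3%. Neither ATCAAAG (TCF/LEF factors), GGTGTGA (T-box factors), ATGCAAAT (POU factors) nor CAGACA (SMAD proteins) occurred in the bases of the 8 members. All motifs were searched on both strands.

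The share of regions in deserts was alike in the 4 lists. Over all lists 12.6% of regions lay in deserts. The share was 12.6% for PS and DE (95% Wilson interval 11.8 to 13.4), 12.6% for DE only (12.3 to 13.0), 12.7% for PS only (11.1 to 14.4) and 11.6% for EPI and PS (8.76 to 15.2). None of the 3 comparisons of PS and DE with another list passed 0.05 (Fisher's exact test, two-sided, adjusted p = 0.933 for each), and the ratios of shares were 0.995, 0.992 and 1.08. With genes of every type in place of protein-coding genes, which leaves 111 PS and DE regions in deserts, the PS and DE share was 1.80% against 2.32% for DE only. That ratio of 0.778 passed (adjusted Fisher's exact p = 0.0371, range over 9 alternatives 0.0371 to 0.966).

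Deserts were occupied more thinly than the rest of the chromosomes. For densities, a desert was measured without the 100 kb next to each flanking coding gene, where no member can lie. Lengths in kb given below for single deserts are the whole gaps between the flanking genes. The 1537 deserts between neighbouring protein-coding genes covered 738 Mb by the first measure. They made up 28.4% of the 2600 Mb between the outermost genes of the chromosomes other than Y. They held 1.05 PS and DE regions per Mb, against 2.89 per Mb elsewhere, a ratio of 0.364. The ratio was 0.364 for DE only and 0.366 for PS only regions and 0.332 for the 44 desert regions of EPI and PS. Unplaced sequence and positions to which reads cannot be mapped were not removed from these lengths, and their part in the ratios was not tested. All members lay between 2 coding genes, and the 11 DE only desert regions beyond the outermost gene of a chromosome were left out of these densities.

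Density also fell with distance inside the deserts. Members numbered 1.60 per Mb at 100 to 200 kb from the nearest coding gene (354 regions), 1.08 at 200 to 500 kb (310 regions), 0.525 at 500 to 1000 kb (82 regions) and 0.378 beyond (28 regions). DE only regions fell from 8.0 to 5.36, 3.18 and 2.15 per Mb over the same classes. Both lists therefore had the same order of densities. The median member lay 216 kb from a gene, with quartiles of 141 and 335 kb.

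**Figure D1:**
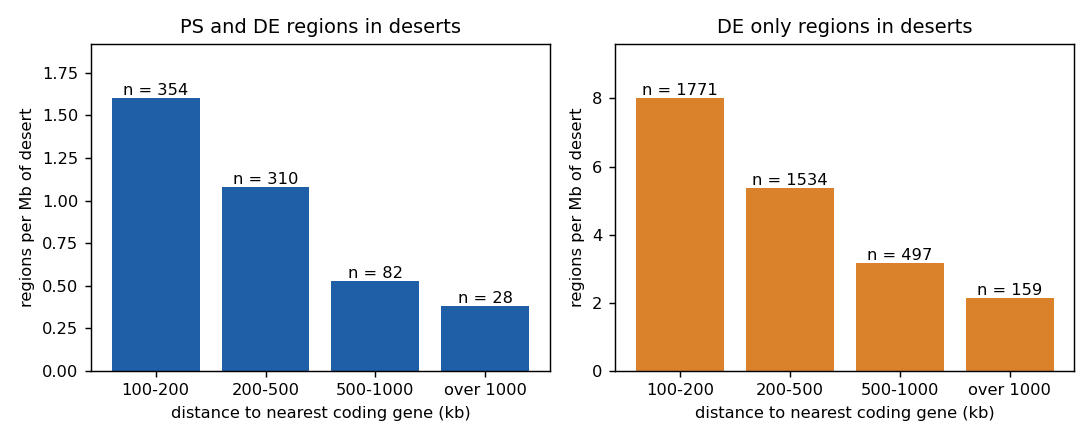
Bars give OTX2 regions per Mb of desert (y axis, from 0) by distance to the nearest protein-coding gene in kb (x axis), for PS and DE regions (left, blue) and DE only regions (right, orange), with region counts above the bars. Density falls from 1.60 to 0.378 per Mb on the left and from 8.0 to 2.15 per Mb on the right.

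Chromosomes differed in how densely their deserts were occupied. The highest values were 1.92 members per Mb of desert on chromosomes 9 and 19, followed by 1.67 on chromosomes 7 and 13. The lowest were 0.379 on the X chromosome, where 58.1 Mb of desert held 22 members, and 0.437 on chromosome 15, where 34.3 Mb held 15. The X chromosome had only 108 PS and DE regions in all. Of these 20.4% lay in deserts, the highest share of any chromosome, against 12.6% over the whole list. On chromosome 15 the share was 6.91% of 217 regions, the lowest. The X chromosome also had the fewest DE only desert regions per Mb, 2.19, against 8.45 on chromosome 13, the highest. Chromosome 15 had 4.69 DE only regions per Mb, somewhat below the 5.37 over all deserts. It had 0.0932 members per DE only region, the lowest of the 20 chromosomes, against 0.311 on chromosome 7, the highest. No test was made between chromosomes.

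The members fell into 426 of the 1537 deserts (27.7%). A single member lay in 244 of them, 2 members in 88, 3 to 5 in 85 and 6 or more in 9, which together held 59 members. DE only regions, 5.13 times as many in deserts as members, were present in 397 of the 426, against 962 of all 1537 deserts. Deserts were not matched for length here, and the part of length in this difference was not tested. The other 29 of the 426 held 33 members and no DE only region. PS only regions as well as DE only regions were present in 96 of the 426. LncRNA genes were annotated in 387 of the 426 deserts, and 2 of the 426 had no annotated gene of any kind. For PS only regions and lncRNA genes the share over all 1537 deserts was not computed.

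The desert with the most members lay between Cd83, a gene for a surface protein of immune cells, and Jarid2, a gene for a subunit of Polycomb repressive complex 2. Its 928 kb (chromosome 13, between 43803133 and 44730774) held 9 members, 21 DE only regions and 1 PS only region. The members were spread over 719 kb, from chr13:43908416-43908697, 105 kb from Cd83, to chr13:44626777-44626925, 104 kb from Jarid2. Their median width was 202 bp, above the 132 bp of all members. The 2 closest to each other, chr13:44499558-44499796 and chr13:44502029-44502260, lay 231 and 229 kb from Jarid2.

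The desert between the Iroquois homeobox genes Irx3 and Irx5, transcription factors of neural and endodermal patterning, was the most densely occupied of the 12 deserts with the most members, with 19.7 members per Mb. The whole gap of 556 kb on chromosome 8, with 0.356 Mb more than 100 kb from both genes, held 7 members and 10 DE only regions. The 7 members lay in the middle, within 95.2 kb, at least 196 kb from either gene. Of these, 5 formed the largest group of members linked by gaps of at most 50 kb, from 92066554 to 92105440, and no DE only region lay between the first and the last of these 5. The widest was chr8:92070603-92071109, with 507 bp.

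The desert between Fn1, which encodes the matrix protein fibronectin, and Mreg was almost as dense, with 19.6 members per Mb. It held 6 members, 5 DE only regions and 1 PS only region. The whole gap was 506 kb on chromosome 1, with 0.306 Mb more than 100 kb from both genes. Of the members, 4 lay within 22.2 kb, 271 to 293 kb from Fn1 and 213 to 235 kb from Mreg. Among them was the widest of all members, chr1:71937013-71937596, with 584 bp, and 0.501 kb beyond it began another of 360 bp, chr1:71938097-71938456. No DE only region lay inside this group of 4.

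Transcription factor and Notch genes bordered several of the other deserts with 5 or 6 members. Gata3, a zinc finger factor of many tissues, faced 2461 kb without a coding gene up to Celf2, with 6 members spread over 1517 kb, the nearest to Gata3 at 325 kb (chr2:9531531-9531675). Klf4, a pluripotency factor, and Actl7b enclosed 6 members, 4 of them nearer Klf4, at 227 to 565 kb from it. The member 473 kb from Klf4 was only 24 bp wide. Runx1, a factor of blood formation, and Setd4 enclosed 6 members, of which chr16:92996205-92996503 and chr16:92996911-92997150 lay 170 and 171 kb from Runx1. Jag1, a Notch ligand, and Btbd3 enclosed 6, with 2 at 170 and 172 kb from Jag1 and 4 within 57.1 kb in the middle of the desert. Nkx6-1, a homeobox factor of pancreas and neural tube, and Gpat3 enclosed 5, the nearest to Nkx6-1 at 129 kb. Epha4, an ephrin receptor, and Slc4a3 enclosed 5, of which 4 lay nearer Slc4a3. Ptbp2, a splicing regulator, and Rwdd3 enclosed 5, with a median width of 246 bp.

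Length and count did not go together in every desert. Tenm2, which encodes the adhesion protein teneurin 2, and Mat2b enclosed 3442 kb with 6 members and 21 DE only regions. The density was 1.85 members per Mb over the 3.24 Mb more than 100 kb from both genes. Deserts here are defined by coding genes alone, and 387 of the 426 with members held lncRNA genes, a share not computed over all deserts. How many of the 426 would remain deserts with genes of every type was not counted. With genes of every type, 111 PS and DE regions stayed in deserts. Annotated immune receptor gene segments lay in 3 of the deserts, with 11 members. Counting the segments as genes did not change the call of any desert share.

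**Figure D2:**
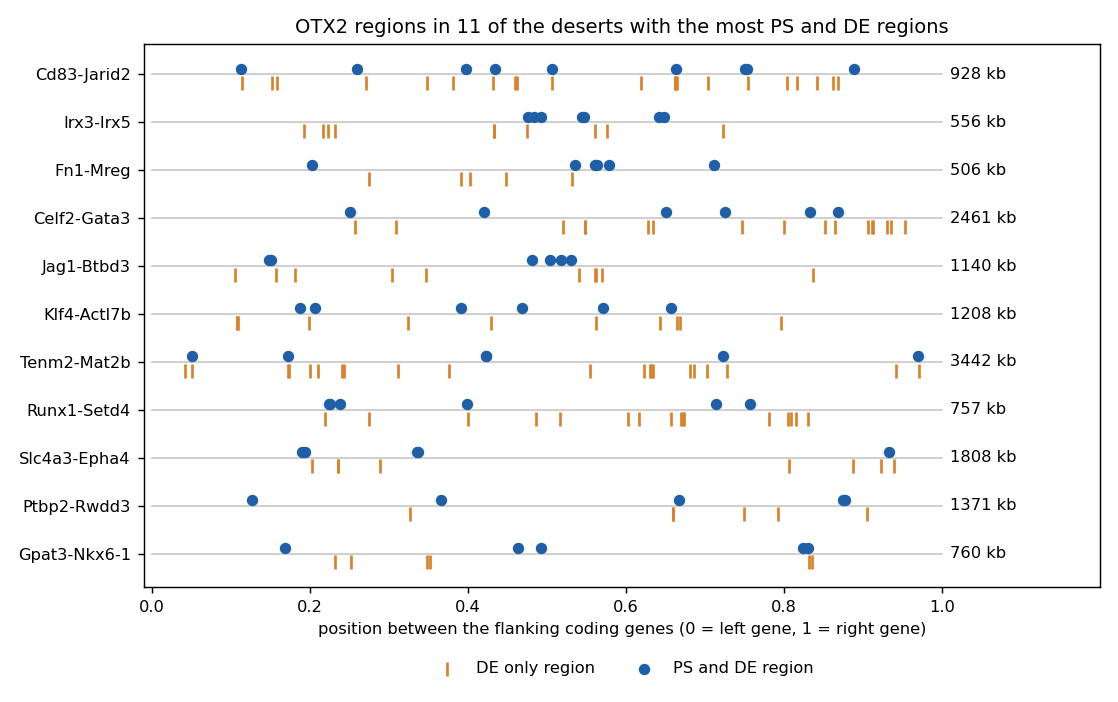
Each line is 1 of 11 deserts among those with the most members, none with immune receptor gene segments, drawn from the left flanking coding gene (0) to the right one (1) on the x axis, with its length in kb at the right. Blue points are PS and DE regions and orange ticks DE only regions. The 7 members between Irx3 and Irx5 sit together in the middle, while the 9 between Cd83 and Jarid2 are spread over the desert.

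The member farthest from any coding gene was chr1:113834499-113834575, 1850 kb from Cntnap5a and 1969 kb from Dsel, with another at 1721 kb from Cntnap5a (chr1:113964142-113964231). Cntnap5a and its relative Cntnap5b encode neuronal adhesion proteins of the neurexin family, and 1 member lay 1679 kb from Cntnap5b. Among the other members farthest out were 1 at 1576 kb from Grik2, 1 at 1529 kb from Got2 and 2 at 1457 and 1458 kb from Tenm2. These regions were 76 to 260 bp wide. Their nearest DE only regions lay between 0.151 kb, for the member of Got2, and 287 kb, for that of Grik2. Remote members were thus found both beside and far from other occupied regions.

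Nearest genes were many and mostly had a single member. The members had 499 different nearest coding genes, of which 327 had 1 member, 105 had 2, 37 had 3 and 30 had 4 or more. Of the 14 developmental gene lists used here, the 64 genes of the list of homeobox and other developmental transcription factors had the most, with 46 members (5.94%) at 23 genes. These genes were nearest to 4.28% of the DE only desert regions and to 2.93% of the desert length. Sox11, a factor of neural and mesenchymal progenitors, had 5 members between 161 and 522 kb away, and 14 DE only regions. Irx2 and Sall1, a zinc finger factor, had 4 each and Sox4 had 3. The 4 at Sall1 lay 198 to 529 kb from it, with 3 DE only regions. The lists were written with earlier results of these data known, and these shares are descriptions with no test.

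Signalling genes had few desert members, and few of them border a desert. The BMP list (19 genes, 7 bordering a desert) had 7 members. Id2, an inhibitor of basic helix-loop-helix factors, had 3 at 303 to 438 kb, and the ligand gene Bmp2 had 2 at 101 and 221 kb. Bmp4 and the decoy receptor gene Bambi had 1 each, that of Bmp4 only 40 bp wide. The WNT list (28 genes, 10 bordering) also had 7: 3 at the receptor gene Fzd8, 211 to 341 kb away, 2 at Rspo3, which encodes a secreted enhancer of WNT signals, at 175 and 320 kb, and 1 each at Fzd1 and Lef1. Per Mb of their own desert these were 4.06 and 5.28 members, against 1.05 over all genes. DE only regions were also dense there, with 12.2 per Mb at the BMP list and 17.4 at the WNT list against 5.38 over all genes. The BMP list had 1.73 Mb of desert and the WNT list 1.32 Mb, and density fell with distance from genes, as given above. The part of desert length in the densities of gene lists was not tested, here or below. The FGF list had 2 members, both at the receptor gene Fgfr2, at 120 and 162 kb (1.13 per Mb). The NODAL and activin list had 1, at the receptor gene Acvr2a (0.441 per Mb). By either flanking gene the BMP list had 12 members, the WNT list 8, the FGF list 6 and the NODAL and activin list 4.

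Endoderm and streak genes had few members and little desert. Of the 18 definitive endoderm genes 7 bordered a desert, and Foxa2, a forkhead factor of the endoderm, had the only 2 members, chr2:147798740-147798922 and chr2:147856269-147856356, at 244 and 187 kb. PS only regions lay 0.378 and 0.202 kb from them. With 0.868 Mb of desert in all, this list had 2.31 members per Mb, against 1.05 over all genes. It also had 18.4 DE only regions per Mb, against 5.38 over all genes. Of the 22 streak genes 6 bordered a desert, with 0.195 Mb in all, and had 0 members and 5 DE only regions. The anterior endoderm and foregut list had 3, all at Irx3, which is 1.88 per Mb, beside 35 DE only regions. The mesoderm list had 4 members (2.42 per Mb). Among them were 2 wide ones of 506 and 386 bp at Pdgfra, a growth factor receptor of mesenchyme and primitive endoderm, at 180 and 188 kb. The epiblast and pluripotency list had 7 (2.99 per Mb), among them 4 at Klf4 and 1 at Pou3f1. The neurectoderm list had 12 (3.56 per Mb), of which 4 lay at Irx5, 3 at Irx3, 2 at Irx1 and 2 at Pou3f2. The extraembryonic endoderm list had 1 (0.614 per Mb), at Apob. These counts go by the nearest gene. By either flanking gene the definitive endoderm list had 3, the streak list 0 and the anterior endoderm and foregut list 13. The mesoderm list then had 7, the epiblast and pluripotency list 19, the neurectoderm list 18 and the extraembryonic endoderm list 5.

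Adhesion genes were at the other end of the range. The 36 genes of cadherins, protocadherins and other adhesion molecules, 33 of which border a desert, were nearest to 7.10% of the desert length but to 2.33% of the members (18 regions) and 3.27% of the DE only desert regions. That is 0.344 members per Mb over 52.4 Mb of desert, far more desert than the signalling and endoderm lists had. The part of desert length in this difference was not tested. Kirrel3 had 3 members, and Cdh2, Cdh10 and Pcdh17 had 2 each, those of Cdh10 at 107 and 829 kb. The guidance list had 9 members (1.16%) against 1.96% of the desert length, among them 2 at Sema6a and 1 each at Epha4, Ephb1 and Efnb2. Those at Ephb1 and Efnb2 were only 3 and 26 bp wide. The housekeeping list borders no desert, and the lymphocyte list had 0 members in 0.556 Mb.

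**Figure D3:**
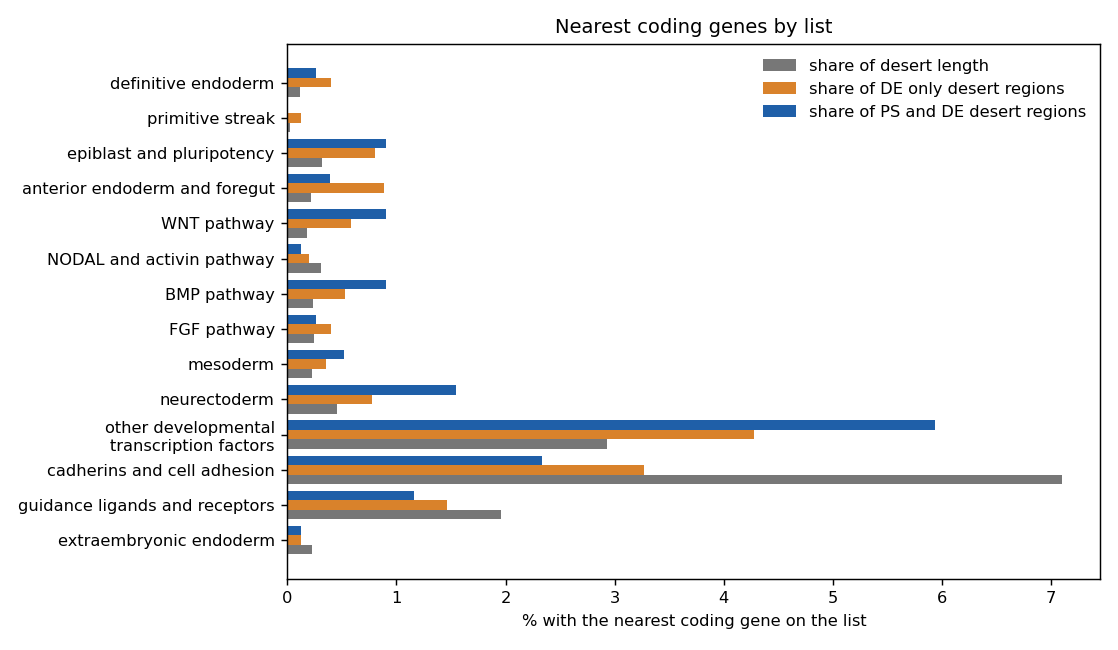
Bars show, for 14 gene lists (y axis), the percentage (x axis, from 0) of desert length (grey), of DE only desert regions (orange) and of PS and DE desert regions (blue) whose nearest protein-coding gene is on the list. For the other developmental transcription factors the blue bar is 5.94% and the grey 2.93%, and for cadherins and cell adhesion 2.33% and 7.10%.

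Members had fewer neighbours than PS and DE regions outside deserts. Another PS and DE region lay within 50 kb of 251 members (32.4%, 95% Wilson interval 29.2 to 35.8), against 45.2% over all PS and DE regions, 46.4% of those inside genes, 39.4% of those at gene ends (within 1 kb of one) and 50.2% of those between genes. A DE only region lay within 50 kb of 537 members (69.4%, 66.0 to 72.5), against 83.8% over all PS and DE regions, 86.3% inside genes, 84.3% at gene ends and 85.8% between genes. A PS only region lay within 50 kb of 79 members (10.2%, 8.27 to 12.5), against 14.7% over all PS and DE regions, 13.7% inside genes, 14.8% at gene ends and 17.7% between genes. The rule keeps the surroundings of a member far from genes, where regions are sparser as given above. These lower shares are therefore not independent of the rule and are given as a description.

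Among desert regions alone, members had more neighbours than DE only regions did. A PS and DE region lay within 50 kb of 32.4% of members and 23.1% (21.8 to 24.4) of DE only desert regions, 1.40 times the share (adjusted Fisher's exact p = 1.74e-07). This held in each of 7 alternatives, with ratios from 1.21 to 1.87. DE only neighbours were found for 69.4% against 64.4% (ratio 1.08, adjusted Fisher's exact p = 0.00881). PS only neighbours were found for 10.2% against 6.62% (1.54, adjusted Fisher's exact p = 0.00118). The DE only ratio was no longer past 0.05 among regions of at least 150 bp (adjusted Fisher's exact p = 0.111, range 4.13e-04 to 0.111). The PS only ratio was no longer past it with a desert limit of 200 kb (0.272) or among those wider regions (0.0785, range 9.13e-04 to 0.272).

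The typical member had a DE only region 19.3 kb away (median, quartiles 4.65 and 63.5 kb) and the next PS and DE region 114 kb away (25.5 and 329 kb). A DE only region lay within 1 kb of 94 members (12.1%), and another PS and DE region within 1 kb of 44 (5.68%). At the other extreme, 32 members (4.13%) had no region of these 3 lists within 200 kb. Linking members across gaps of at most 50 kb gave 645 groups: 545 single members, 80 pairs and 20 groups of 3 or more. Besides those at Irx3 and Irx5, Mreg and Jag1, groups of 4 lay 103 to 170 kb from Bcl2l11, which encodes a protein of programmed cell death, and between Arglu1 and Fam155a. DE only regions lay inside these last 2 groups, 2 and 4 in number.

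**Figure D4:**
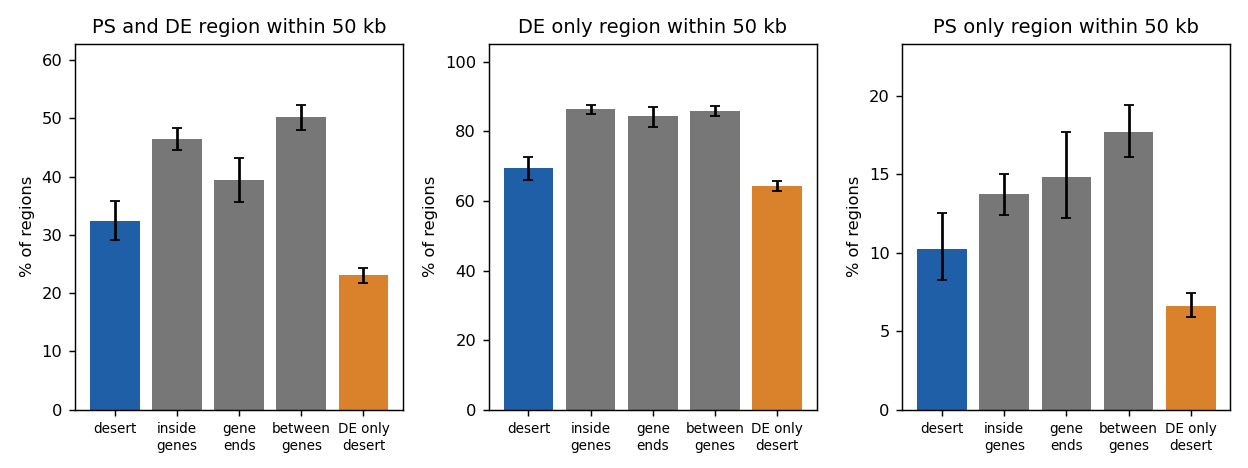
Bars give the percentage of regions (y axis, from 0, scaled per panel) with a PS and DE (left), DE only (middle) or PS only (right) region within 50 kb, and lines the 95% Wilson intervals. Members (blue) lie below PS and DE regions inside genes, at gene ends and between genes (grey), and above DE only desert regions (orange), for example 32.4% against 46.4% and 23.1% on the left.

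Members were wider than shared regions at gene ends and close in width to other shared regions. Their median width was 132 bp (quartiles 94.2 and 184), against 126 bp between genes, 123 bp inside genes and 108 bp at gene ends. A width of at least 200 bp was found for 143 members (18.5%, 15.9 to 21.4), against 17.2% over all PS and DE regions. At gene ends it was 9.08% (7.10 to 11.5), so that members exceeded it 2.04 times (adjusted Fisher's exact p = 1.58e-06). Against regions inside genes the ratio was 0.996 (adjusted Fisher's exact p = 1) and 1.06 against those between genes (adjusted Fisher's exact p = 0.728). DE only desert regions reached 200 bp in 22.0% (0.839, adjusted Fisher's exact p = 0.0554), which passed with a desert limit of 200 kb (0.763, adjusted Fisher's exact p = 0.0322, range 0.0322 to 0.690). With a limit of 150 bp the shares were 41.5% for members, 35.8% inside genes and 36.1% between genes, which then passed (adjusted Fisher's exact p = 0.00903 and 0.0123, highest 0.690 for both over the 3 alternatives).

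Among the widest members, the one at Mreg was followed by 554 bp at 121 kb from Cdkn3 and 249 kb from Bmp4 (chr14:46639216-46639769), 544 bp at 367 kb from Mn1 (chr5:111823644-111824187) and 509 bp at 144 kb from Hes1, a Notch target and repressor (chr16:29921134-29921642). Next were those at Irx3 and Pdgfra. These were picked by width after it was seen. At the narrow end, 23 members (2.97%) were under 50 bp, down to 3 bp at Ephb1, a share close to the 3.02% of all PS and DE regions. No DE only desert region was that narrow, and how regions were matched between stages is not given in the sources used here.

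**Figure D5:**
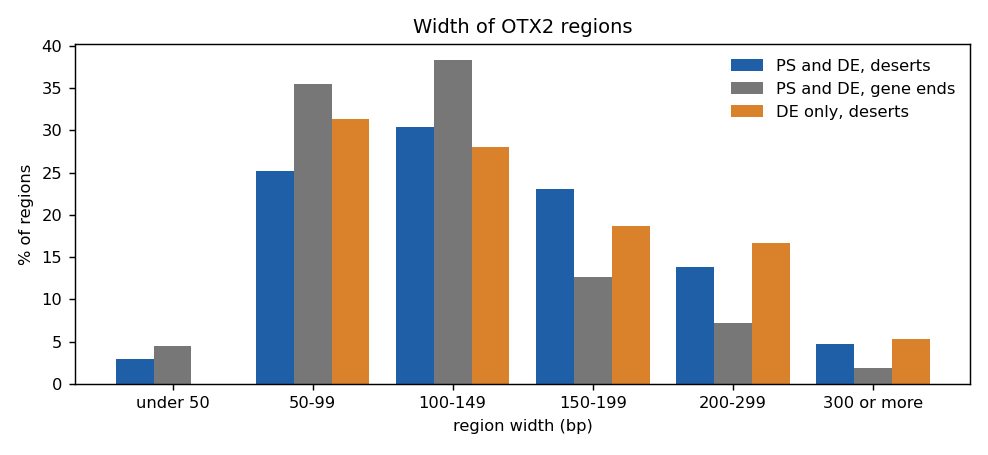
Bars give the percentage of regions (y axis, from 0) in 6 width classes in bp (x axis), for PS and DE regions in deserts (blue), PS and DE regions at gene ends (grey) and DE only regions in deserts (orange). Members have more regions of 150 bp and wider than regions at gene ends, and the DE only desert regions plotted include none under 50 bp.

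Non-coding genes overlapped a minority of members. The midpoint lay inside an annotated lncRNA for 152 members (19.6%, 95% Wilson interval 17.0 to 22.6), against 16.6% (15.5 to 17.8) of DE only and 15.9% (11.6 to 21.5) of PS only desert regions. It lay within 1 kb of a listed lncRNA start for 24 of 741 members (3.24%, 2.19 to 4.77) on the chromosomes with listed starts, against 1.92% (1.53 to 2.40) of DE only desert regions. These differences were not tested. Among the 24 were members at Lncenc1, an lncRNA of embryonic stem cells, 158 bases from its start (chr13:97435051-97435204), and at Gm36886, one of the members next to Id2. At Gm10637 2 members lay on the 2 sides of the start, chr8:87199598-87199767 and chr8:87199899-87200106. MicroRNA hairpins lay within 10 kb of 2 members: Mir344g at 5.34 kb from chr7:61987575-61987746, and Mir802 at 3.35 kb from chr16:93366358-93366471, in the desert of Runx1 and Setd4.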

How the data were processed

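Members and gene lists were chosen with earlier results of these data known. The authors deposited 4 region lists of 3 columns, chromosome, start and end, a unit recorded as other, with no header. The submitters' processing notes name MACS2 2.2.6, bedtools 2.30, Picard 2.26.10, SAMtools 1.14, Bowtie2 2.3.5.1 and the build mm10, without order or settings. Peak threshold, use of IgG and pooling were not given in the sources used here. Depth per library is unknown.

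Starts were converted to count from 1. Gene-based counts leave out 2 regions (DE only) that lie on an unplaced scaffold. Genes came from RefSeq (GRCm38.p6, which is mm10), with 21887 protein-coding genes on chromosomes. The 95% Wilson intervals of shares reflect counting error alone. Shares were compared by Fisher's exact test, two-sided, Benjamini-Hochberg adjusted within 3 desert, 12 neighbour and 4 width comparisons, at 0.05. Distances between regions are edge to edge. The 16 gene lists hold 360 different genes, all matched. Named are the 12 deserts with the most members, the 8 farthest members, up to 4 genes per list, the 5 largest groups, and members in promoter windows, apart from some items that are not reported here. The functions were tested on simulated data. Python 3.11.15, numpy 2.4.6, pandas 2.3.3, scipy 1.17.1 and matplotlib 3.10.9 were used.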

Additional observations from a re-analysis of the deposited data

How the results depend on the processing

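Ratios of shares, among them the neighbour ratios against regions outside deserts, which are not independent of the rule, were recomputed under 15 settings, 4 of them chosen after seeing the data. Desert share of PS and DE against DE only: 1.05 with a desert limit of 50 kb and 0.778 with genes of every type, the latter past 0.05. Against PS only: 1.10 with a limit of 200 kb, 1.18 with genes of every type, 1.09 for regions of at least 150 bp and 1.05 for regions no narrower than the median of their own list. Against EPI and PS: 0.958 with 200 kb and 0.976 with genes of every type. Apart from 0.778 these had no call, as in the report. Among regions of at least 150 bp, with 321 members left, these neighbour ratios were no longer past 0.05: PS and DE neighbours against gene ends (0.791), DE only neighbours against gene ends (0.952) and DE only desert regions (1.13), and PS only neighbours against inside (0.947), between (0.563) and DE only desert regions (2.05), while against gene ends the last turned to 1.43. With neighbours within 10 kb the same held for PS and DE against gene ends (0.890) and PS only against inside (0.784) and gene ends (0.761). With 200 kb deserts, PS only against DE only desert regions was 1.28. The other 73 of 84 neighbour values kept direction and call. For width, a limit of 150 bp gave 1.16 inside, 1.15 between (both now past 0.05) and 1.02 against DE only desert regions, a limit of 300 bp gave 1.08 inside, and 200 kb deserts gave 0.944 between and 0.763 against DE only desert regions, the last past 0.05. The cause was not tested, beyond the fewer regions left by some settings. Members with a gene of a non-control list numbered 116 by nearest gene and 208 by either flanking gene, higher by construction. No paired analysis was possible because the region lists carry no library, and for the same reason no library could be left out. The planned motif comparison and its alternatives were not run, since they need a genome, which was not used here. Depth per library is unknown, so regions missed for want of depth could not be counted.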
